A study of Mus musculus with 36 samples.

Results

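The adipokine genes described here were the 9 rows of the deposited gene table named *Lep*, *Retn*, *Cfd*, *Apln*, *Rarres2*, *Nrg4*, *Sfrp5*, *Adipor1* and *Adipor2*, taken by symbol from 56748 rows. They are 7 genes for proteins that fat secretes and 2 genes for receptors of adiponectin, and each symbol matched 1 row. The RNA came from visceral white adipose tissue (visWAT) and liver of the same 18 male C57BL/6J mice, which were 16 weeks old when the diets began and then ate either normal chow (NCD) or high-fat food (HFD) for 16 weeks. The visWAT was the epididymal pad. MlklAdi-KO mice carried loxP-flanked *Mlkl* and an Adipo-Cre transgene meant to act in mature adipocytes, so that the other cells of the fat pad and the liver kept the gene. WT mice were littermates with the same loxP-flanked alleles and no Cre. Each tissue had 4 MlklAdi-KO and 4 WT mice on NCD and 5 MlklAdi-KO and 5 WT mice on HFD, with 1 library per mouse. The promoter that drives Cre is not given in the sources used here.

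Adipocytes store triglyceride and also act as an endocrine organ. The proteins they release, called adipokines, tell brain, muscle, liver, vessels and immune cells how much fuel is stored. Some adipokines rise as fat cells enlarge, and others are typical of lean and insulin-sensitive fat. Whole pads were sequenced, so the RNA of a gene depends both on how many cells make it and on how much each cell makes, and fewer cells of a type cannot be told apart from less RNA per cell.

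The values are FPKM, fragments scaled to gene length and library size, which allows levels of different genes to be set side by side. The libraries held between 20875463 and 30322171 reads on genes. In visWAT *Mlkl* itself was at 1.96 to 2.72 FPKM in the 9 MlklAdi-KO mice and at 3.91 to 6.28 FPKM in 8 of 9 WT mice. With 2.29 FPKM, the visWAT library labelled WT NCD 182 lay in the MlklAdi-KO range and thus went against its label. The visWAT library of WT NCD mouse 183 held a large amount of seminal vesicle RNA, with 255949 FPKM summed over 6 seminal vesicle genes against at most 335 in any other visWAT library. The fat markers were present in all visWAT libraries, where the summed level of 14 mature adipocyte genes ran from 6043 to 12509 FPKM. Leaving out mice 182 and 183 together changed no call of the genes described here. Within a tissue each library is a separate mouse, and p-values rest on the spread between mice.

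The genes lie apart in the genome, apart from *Lep*, *Rarres2* and *Adipor2*, which share chromosome 6 at distances of many megabases. On GRCm39 the annotated genes are *Lep* (ENSMUSG00000059201) at chr6:29060219-29073876 on the plus strand, *Cfd* (ENSMUSG00000061780) at chr10:79726687-79728489 on the plus strand, *Retn* (ENSMUSG00000012705) at chr8:3705770-3710110 on the plus strand and *Sfrp5* (ENSMUSG00000018822) at chr19:42186410-42190691 on the minus strand. *Rarres2* (ENSMUSG00000009281) is at chr6:48546630-48549723 and overlaps *Lrrc61* on the other strand, and *Nrg4* (ENSMUSG00000032311) at chr9:55127506-55234128 overlaps *Fbxo22* on the other strand. *Fbxo22* averaged 18.1 FPKM in visWAT, and since the strandedness of the counting is not given in the sources used here, values of *Nrg4* and *Rarres2* may hold reads of these neighbours.

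To show the regulatory sequence beside the genes that moved most, the bases upstream of the transcription start were read from the RefSeq promoter table (build GRCm38.p6), which held 8 of the 9 genes. Windows of 250 bases before the start were searched on both strands for TTGCNNAA, the element bound by C/EBP factors of adipocytes, AGGTCA, the element of nuclear receptors, CACGTG, the E-box, and TATAAA, the TATA box. The 150 bases next to the start are printed for the 5 genes that changed most with diet in visWAT among those in the table, 5′ to 3′ on the strand of the gene, with matches in capitals. These are *Lep* at chr6:29060071-29060220, *Sfrp5* at chr19:42202253-42202402, *Cfd* at chr10:79890703-79890852, *Retn* at chr8:3655620-3655769 and *Nrg4* at chr9:55283626-55283775.
Lep: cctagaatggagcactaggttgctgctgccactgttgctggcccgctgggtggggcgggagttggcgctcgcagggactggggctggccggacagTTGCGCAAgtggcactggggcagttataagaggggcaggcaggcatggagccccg
Sfrp5: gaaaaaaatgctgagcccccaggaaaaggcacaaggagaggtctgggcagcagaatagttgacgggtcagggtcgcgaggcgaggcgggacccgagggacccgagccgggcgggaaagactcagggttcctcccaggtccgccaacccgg
Cfd: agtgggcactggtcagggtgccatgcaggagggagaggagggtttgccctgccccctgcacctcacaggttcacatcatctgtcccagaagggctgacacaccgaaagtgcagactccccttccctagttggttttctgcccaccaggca
Retn: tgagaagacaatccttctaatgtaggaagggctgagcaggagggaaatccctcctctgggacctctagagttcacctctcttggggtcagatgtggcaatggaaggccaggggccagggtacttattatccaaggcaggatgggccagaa
Nrg4: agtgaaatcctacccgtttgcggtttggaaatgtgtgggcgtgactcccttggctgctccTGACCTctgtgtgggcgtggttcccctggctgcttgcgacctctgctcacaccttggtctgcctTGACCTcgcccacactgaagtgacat

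*Lep* had 1 match to the C/EBP element, from base -55 to -48 relative to the start, and *Nrg4* had 2 matches to the nuclear receptor element, from -90 to -85 and from -26 to -21. The windows of *Sfrp5*, *Cfd*, *Retn*, *Apln*, *Adipor1* and *Adipor2* held none of the 4 motifs. Among all 32851 windows in the table, 9.56% held the C/EBP element, 14.02% the nuclear receptor element, 6.02% the E-box and 12.4% the TATA box. A match is a description of letters and not a bound site.

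In visWAT of WT mice on NCD, *Cfd* dominated the group with 9491 ± 4652 FPKM (SD, n = 4), and its reads made up 1.08% of all reads on genes. It was followed by *Retn* with 725 ± 168, *Lep* with 137 ± 46.0, *Adipor2* with 81.1 ± 29.2, *Rarres2* with 36.5 ± 11.9, *Adipor1* with 27.5 ± 2.06, *Sfrp5* with 15.9 ± 21.96, *Nrg4* with 7.43 ± 2.23 and *Apln* with 3.71 ± 1.74 FPKM. The ranges of *Cfd*, *Retn* and *Lep* did not meet, whereas *Lep* and *Adipor2* overlapped and so did each pair of neighbours from *Rarres2* to *Apln*. On HFD the order was another: *Lep* led with 602 ± 35.98 FPKM (SD, n = 5), before *Cfd* with 389 ± 142, *Sfrp5* with 189 ± 35.0 and *Retn* with 127 ± 33.3. Each of these 4 overlapped its neighbour in the order.

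The first question was what HFD does to these genes in WT visWAT. *Lep*, *Sfrp5* and *Rarres2* rose and *Cfd*, *Retn* and *Nrg4* fell, with fold differences of the group means from 1.88 for *Rarres2* to 24.4 for *Cfd*. *Apln* and the receptor genes *Adipor1* and *Adipor2* did not pass the test. These 6 of 9 genes passed an adjusted p of 0.05 in limma on log2(FPKM + 1), in a comparison where 37.8% of 14161 genes tested did. In the same 6 genes the ranges of the HFD and NCD groups did not overlap, as was so for 33.4% of all genes tested.

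*Lep* encodes leptin, the hormone that reports fat mass to the hypothalamus. It was at 193, 151, 83.8 and 122 FPKM in WT NCD mice 165, 180, 182 and 183 and at 620.0, 543, 624.5, 591 and 630.3 FPKM in WT HFD mice 154, 155, 161, 162 and 164. Every HFD mouse was thus above every NCD mouse, and the HFD values lay close together. The log2 fold change was 2.18 ± 0.21 (SE; adjusted p = 4.67e-05 in limma, two-sided exact permutation p = 0.00794, the smallest this design can give).

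*Sfrp5* encodes a secreted antagonist of Wnt proteins that is known to bind Wnt5a. On NCD it was the most variable of the genes, at 48.2, 4.11, 0.350 and 10.996 FPKM in mice 165, 180, 182 and 183. On HFD it was at 180.5, 156, 226, 225 and 157 FPKM in mice 154, 155, 161, 162 and 164. All HFD values exceeded the highest NCD value more than 3-fold. The log2 fold change was 4.55 ± 0.84 (adjusted p = 0.00235, exact p = 0.00794).

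*Rarres2* encodes chemerin, a chemoattractant and adipokine whose receptor is *Cmklr1*. It rose from 49.5, 40.0, 20.9 and 35.5 FPKM on NCD to 71.4, 64.6, 68.5, 69.7 and 68.6 FPKM on HFD, in the same order of mice. The HFD values were nearly alike and all above the NCD values, by 0.95 ± 0.21 on the log2 scale (adjusted p = 0.00547, exact p = 0.00794).

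*Cfd* encodes adipsin, the serine protease also called complement factor D, which starts the alternative pathway of complement by cutting factor B. It was at 12032, 14086, 3486 and 8360.4 FPKM in NCD mice 165, 180, 182 and 183 and at 438, 204, 381, 589.9 and 331 FPKM in HFD mice 154, 155, 161, 162 and 164. The lowest NCD mouse, 182, was still over 5 times the highest HFD mouse. *Cfd* fell by 4.51 ± 0.44 on the log2 scale (adjusted p = 4.54e-05, exact p = 0.00794), and its share of reads went from 1.08% ± 0.631 to 0.0497% ± 0.0183.

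*Retn* encodes resistin, which in the mouse is made by adipocytes. It was at 672, 904, 808 and 516 FPKM on NCD and at 122, 92.5, 113, 182 and 127 FPKM on HFD. The groups were far apart, and *Retn* fell by 2.51 ± 0.22 on the log2 scale (adjusted p = 2.40e-05, exact p = 0.00794). *Nrg4* encodes neuregulin 4, a growth factor for ErbB receptors that acts on the liver. Its values of 6.09, 8.44, 10.1 and 5.15 FPKM on NCD and of 4.16, 2.68, 3.06, 4.69 and 4.50 FPKM on HFD came near each other without meeting. It fell by 0.79 ± 0.20 (adjusted p = 0.0114, exact p = 0.00794), but with the values rescaled to the same sum in every library the change was -0.43 and no longer passed (adjusted p = 0.308). That rescaling moved the median of all genes by 0.37 in this comparison. The sum was 564718 FPKM in NCD mouse 183, whose library held the seminal vesicle RNA, and 227793 to 309820 FPKM in the other visWAT libraries.

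The receptors of adiponectin, which act through ceramide breakdown, AMPK and PPARα, showed no change past the test. *Adipor1* was the steadiest gene of the group, at 26.0 to 30.4 FPKM on NCD and 25.9 to 28.7 on HFD, with a log2 fold change of -0.03 ± 0.07 (adjusted p = 0.794). *Adipor2* was at 64.7, 91.5, 117 and 51.2 FPKM on NCD and at 52.8 to 66.5 FPKM on HFD (-0.33 ± 0.22, adjusted p = 0.251), and it passed as lower on HFD in 1 of 9 fits without 1 mouse, that without mouse 183 (-0.53, adjusted p = 0.0374). *Apln*, the gene for the vasoactive peptide apelin, was at 1.99 to 5.97 FPKM on NCD and 2.03 to 4.28 on HFD (-0.11 ± 0.27, adjusted p = 0.778). The sign of these 3 small differences turned positive after rescaling to the same sum in every library, which moved the median of all genes by 0.37, without passing the test.

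**Figure D1:**
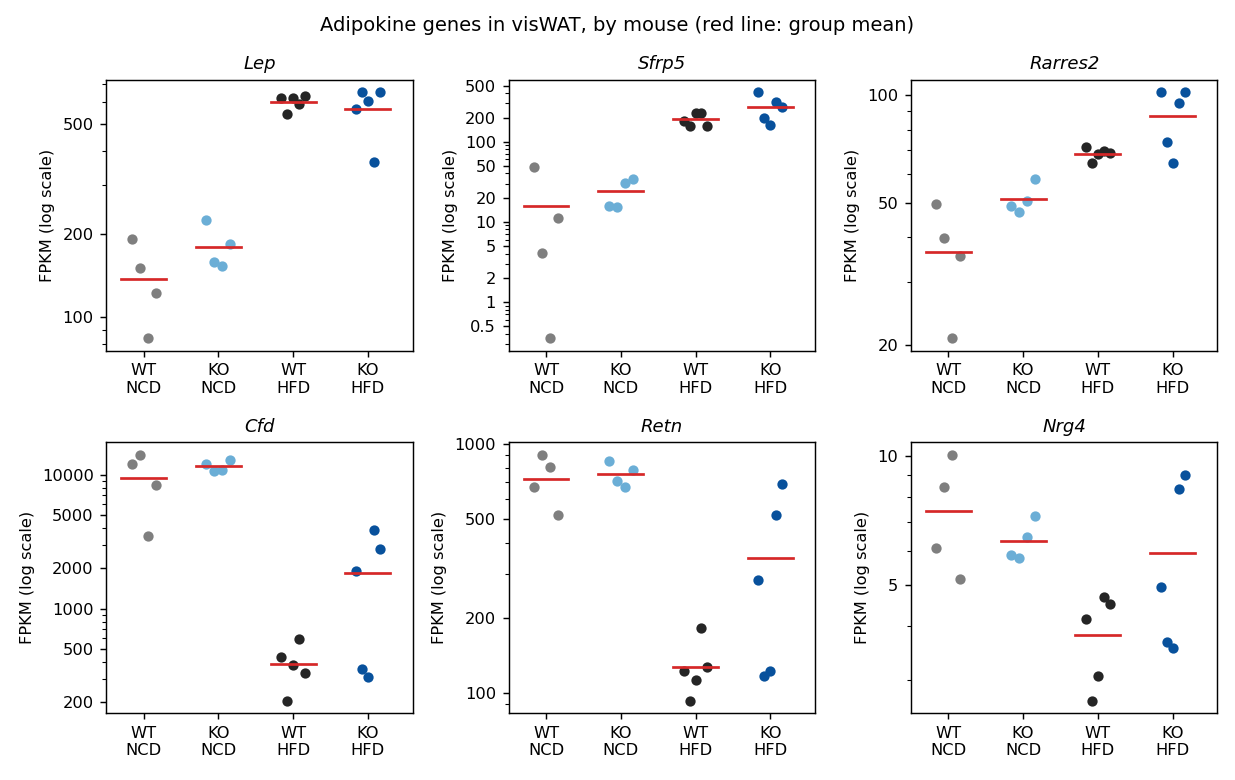
FPKM in visWAT on a log axis for *Lep*, *Sfrp5*, *Rarres2*, *Cfd*, *Retn* and *Nrg4*, with 1 point per mouse and the group mean as a red line; KO stands for MlklAdi-KO. The upper genes are higher on HFD in both genotypes, the WT HFD mean is the lowest of the 4 in the lower genes, and the 5 KO HFD mice spread from 308 to 3853 FPKM in *Cfd*.

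In MlklAdi-KO visWAT the diet comparison gave 5 calls, *Lep*, *Sfrp5* and *Rarres2* upward and *Cfd* and *Retn* downward, where 43.7% of 14026 genes passed. The groups did not overlap in 4 of the 9 genes, *Lep*, *Sfrp5*, *Rarres2* and *Cfd*, as in 38.4% of all genes tested. *Lep* was at 225, 159, 153 and 184 FPKM in NCD mice 166, 179, 197 and 199 and at 569, 654, 606, 364 and 653 FPKM in HFD mice 151, 152, 153, 156 and 157. It rose by 1.64 ± 0.19 (adjusted p = 0.000452, exact p = 0.00794), with mouse 156 well below the other HFD mice.

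*Sfrp5* was at 15.9, 15.3, 30.8 and 34.1 FPKM on NCD and at 416, 197, 159, 316 and 272 FPKM on HFD, a rise of 3.46 ± 0.33 (adjusted p = 0.000227, exact p = 0.00794). *Rarres2* was at 48.9, 47.1, 50.6 and 58.2 FPKM on NCD and at 102, 73.7, 64.7, 94.8 and 102 FPKM on HFD, a rise of 0.74 ± 0.15 (adjusted p = 0.00397, exact p = 0.0159). In both genes the HFD mice 152 and 153 were the lowest of their group and close to the WT HFD mice.

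*Cfd* was at 12010.2, 10665, 10783 and 12955 FPKM on NCD and at 1907, 354, 308, 3853 and 2799 FPKM on HFD. The groups were apart, while the HFD mice differed among themselves more than 10-fold, with mice 152 and 153 within the range of WT HFD mice and mice 151, 156 and 157 above it. *Cfd* fell by 3.30 ± 0.76 (adjusted p = 0.00762, exact p = 0.0159). *Retn* was at 851, 708, 671 and 783 FPKM on NCD and at 284, 117, 122, 519 and 690.5 FPKM on HFD, so that mouse 157 reached the NCD range.

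*Retn* fell by 1.47 ± 0.52 (adjusted p = 0.0464, exact p = 0.0556). This call was lost in 7 of 9 fits that left out 1 mouse, with adjusted p from 0.0130 without HFD mouse 157 to 0.101 without NCD mouse 166, and in edgeR (0.0855), in DESeq2 (0.0589) and with no filter on low genes (0.0998 at the same fold change). *Nrg4* was at 5.85, 5.76, 6.46 and 7.22 FPKM on NCD and at 4.95, 3.68, 3.56, 8.35 and 9.04 FPKM on HFD, with HFD mice on either side of the NCD group (-0.16 ± 0.25, adjusted p = 0.627). *Adipor1* (0.08 ± 0.06, adjusted p = 0.252), *Adipor2* (-0.02 ± 0.15, adjusted p = 0.928) and *Apln* (0.20 ± 0.17, adjusted p = 0.363) did not pass.

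The comparison of genotypes on HFD asked whether these genes differ with loss of *Mlkl* from adipocytes in fat of HFD-fed mice. The study reported less weight gain and less fat mass in HFD-fed MlklAdi-KO than in WT mice, so that the groups also differ in adiposity. The part of adiposity in the values was not tested. None of the 9 genes passed in limma, where 0.0215% of 13963 genes did, and none of the 9 had groups that did not overlap, against 3.01% of all genes tested. At an unadjusted p under 0.05 there were 3 of the 9, *Cfd*, *Retn* and *Rarres2*, and 3003 of all 13963 genes. None of the 9 passed in edgeR or in DESeq2, which called 1.15% of genes.

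The largest differences were in *Cfd*, with a mean of 1844 ± 1544 FPKM in MlklAdi-KO and 389 ± 142 FPKM in WT mice on HFD (SD, n = 5 each), and in *Retn*, with 346 ± 252.5 against 127 ± 33.3 FPKM. The log2 fold changes were 1.68 ± 0.71 for *Cfd* (adjusted p = 0.224, exact p = 0.119) and 1.12 ± 0.48 for *Retn* (adjusted p = 0.227, exact p = 0.0952). Of the 5 MlklAdi-KO mice, 3 were above all WT mice in each gene, namely 151, 156 and 157, and the other two were within the WT range. In DESeq2 the adjusted p of *Cfd* was 0.0617 and that of *Retn* 0.0898.

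*Rarres2* (0.32 ± 0.13, adjusted p = 0.221), *Nrg4* (0.46 ± 0.24, adjusted p = 0.270), *Sfrp5* (0.46 ± 0.24, adjusted p = 0.273) and *Adipor2* (0.24 ± 0.12, adjusted p = 0.258) also had higher means in MlklAdi-KO mice, with overlapping groups. *Lep* (-0.11 ± 0.16, adjusted p = 0.669), *Apln* (0.14 ± 0.18, adjusted p = 0.647) and *Adipor1* (0.02 ± 0.05, adjusted p = 0.827) were near 0. Mice 151, 156 and 157 were also the 3 highest MlklAdi-KO mice in *Rarres2*, *Nrg4*, *Sfrp5* and *Adipor2*, so that the same animals carried the mean of the group in 6 genes.

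On NCD none of the 9 genes passed between the genotypes, and neither did any other gene (0% of 14063 in limma, with 528 at an unadjusted p under 0.05 and 8 called by DESeq2). No gene of the 9 had groups apart, as 2.46% of all genes tested had. The log2 fold changes ran from -0.17 for *Nrg4* to 1.56 ± 0.96 for *Sfrp5* (adjusted p = 0.916), and that of *Sfrp5* rests on the wide spread of the WT mice. The interaction of genotype with diet was not called in any of the 9 genes or in any other gene (0% of 14136 in limma, 1867 at an unadjusted p under 0.05, 21 called by DESeq2). It was 1.21 ± 0.93 for *Cfd* (adjusted p = 0.554), 1.04 ± 0.60 for *Retn* (0.443), 0.63 ± 0.33 for *Nrg4* (0.413) and -0.54 ± 0.30 for *Lep* (0.425), so that a different diet effect in the genotypes was not shown.

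**Figure D2:**
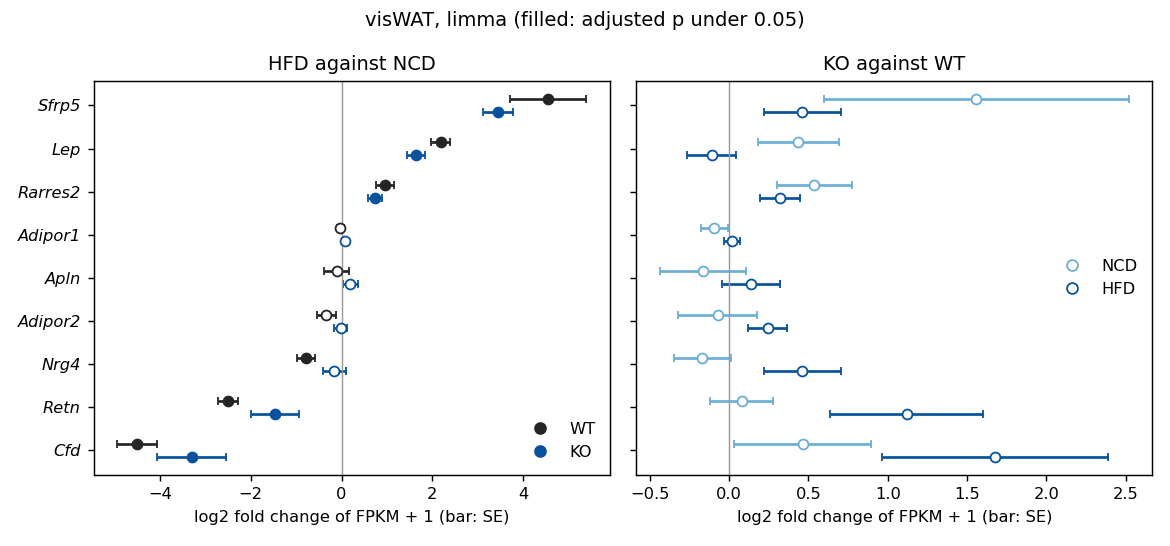
log2 fold changes of FPKM + 1 with SE in visWAT for the 9 genes, HFD against NCD by genotype on the left and MlklAdi-KO (KO) against WT by diet on the right, with filled points at an adjusted p under 0.05. Diet moves 6 genes in WT and 5 in KO mice, from 4.55 for *Sfrp5* to -4.51 for *Cfd* in WT, and no point on the right is filled.

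Markers of several cell types moved with diet and with these mice. The summed level of 14 mature adipocyte genes was 10435 ± 1783 FPKM in WT NCD and 6800 ± 496 in WT HFD mice. On HFD 7 of the 14 genes were called lower and none higher, where 37.8% of all genes tested were called in either direction. The summed level of 10 macrophage genes was 456 ± 84.0 FPKM in WT NCD and 2907 ± 425 in WT HFD mice, and all 10 genes were called higher, beside the same 37.8%. In MlklAdi-KO HFD mice 151, 152, 153, 156 and 157 the adipocyte genes summed to 10015, 7010.0, 6675, 11733 and 12509 FPKM, and the macrophage genes to 1999.9, 2794, 3133, 1242 and 1152 FPKM. The mice high in *Cfd*, *Retn* and *Nrg4* were thus high in adipocyte and low in macrophage genes.

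The summed level of 6 fibroblast and progenitor genes was 174 ± 22.5 FPKM in WT NCD and 362 ± 26.7 in WT HFD mice, with 5 of the 6 called higher, where 37.8% of all genes were called. It was 276, 401, 363, 198 and 213.5 FPKM in MlklAdi-KO HFD mice 151, 152, 153, 156 and 157, lower in the mice high in *Cfd* and *Retn*. The sum of 8 hepatocyte genes was 1175 ± 537 FPKM in WT NCD and 103 ± 68.9 in WT HFD visWAT, and most of it was *Cyp2e1*, with 1158 ± 534 and 66.7 ± 38.2 FPKM. Of 6 hepatocyte genes tested, 1 was called lower on HFD and none higher, where 37.8% of all genes were called. Their median log2 fold change was 0.33, so that the fall is one of *Cyp2e1* and not of the list. In the same MlklAdi-KO HFD mice the sum was 92.4, 69.6, 60.5, 1420.2 and 344.03 FPKM, and mouse 156 also had the highest level of *Alb*, the gene of serum albumin, at 459.6 FPKM. Within groups the deviations of this sum, which was mostly *Cyp2e1* in WT mice, went with those of *Nrg4* (r = 0.81, rho = 0.87) and *Retn* (r = 0.77, rho = 0.73) over the 18 libraries. The part of cell content in the differences was not tested.

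To put the adipokines on the scale of the fat cell genes, each value was divided by the summed mature adipocyte level of the same library, a step chosen after the values were seen. That sum itself fell on HFD in WT mice, from 10435 to 6800 FPKM, so that a gene with steady FPKM rises on this scale. It was also higher in MlklAdi-KO HFD mice 151, 156 and 157 than in 152 and 153. The ratio mixes changes of both terms and is not a level per fat cell. Per 1000 FPKM of adipocyte genes, WT mice had 915 ± 401 FPKM of *Cfd* on NCD and 56.3 ± 17.2 on HFD, and 69.0 ± 5.99 of *Retn* on NCD and 18.5 ± 3.64 on HFD, with no overlap in either gene (exact p = 0.00794 each). *Retn* was nearly alike in the 4 WT NCD mice on this scale, at 62.6 to 74.8. *Nrg4* did not differ past the test, with 0.707 ± 0.148 on NCD and 0.556 ± 0.0986 on HFD (exact p = 0.135).

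On the same scale *Lep* was at 13.4 ± 4.44 on NCD and 88.7 ± 5.20 on HFD, *Sfrp5* at 1.56 ± 2.03 and 27.8 ± 4.51, and *Rarres2* at 3.58 ± 1.26 and 10.1 ± 0.442 (exact p = 0.00794 each). *Adipor1* also came out higher on HFD, with 3.98 ± 0.393 against 2.69 ± 0.456 (exact p = 0.00794). Its FPKM did not pass the test (-0.03 ± 0.07), so that its ratio moved with the list sum. Between the genotypes on HFD, *Cfd* was at 168 ± 120.4 in MlklAdi-KO and 56.3 ± 17.2 in WT mice (exact p = 0.119), *Retn* at 32.5 ± 16.7 and 18.5 ± 3.64 (0.103) and *Nrg4* at 0.597 ± 0.110 and 0.556 ± 0.0986 (0.548). *Lep* relative to the adipocyte genes was at 56.8, 31.1 and 52.2 in MlklAdi-KO mice 151, 156 and 157 and at 93.3 and 90.7 in mice 152 and 153, against 80.4 to 94.0 in WT HFD mice (exact p = 0.135). *Adipor2* was lower in MlklAdi-KO than in WT mice on this scale, at 7.85 ± 0.924 and 8.99 ± 0.243 with overlapping groups (log2 difference -0.20, exact p = 0.0397, the lowest unadjusted p of the 9 genes), whereas its FPKM had the higher mean in MlklAdi-KO mice (0.24).

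**Figure D3:**
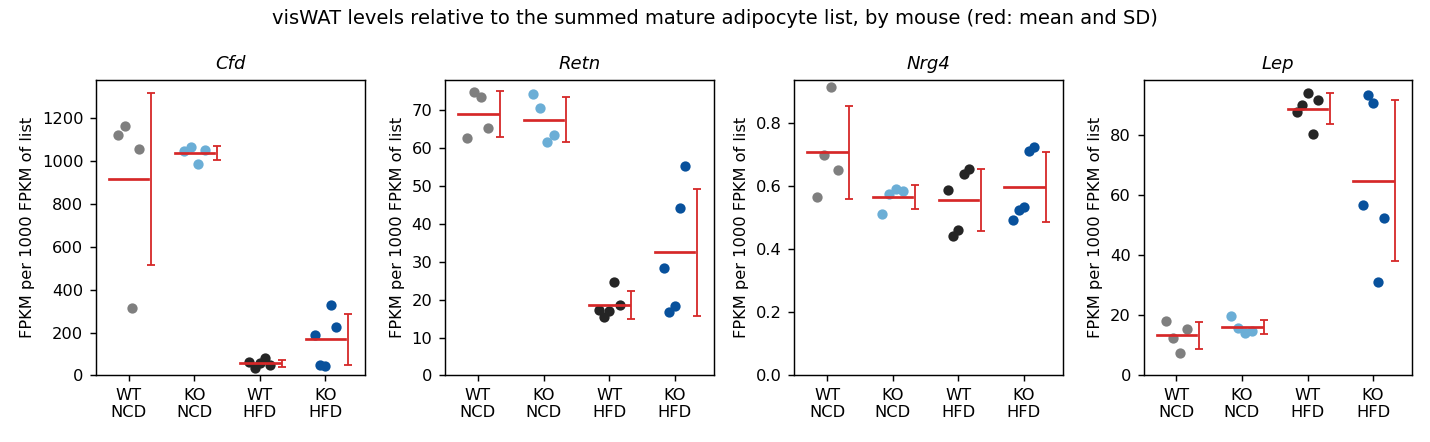
FPKM of *Cfd*, *Retn*, *Nrg4* and *Lep* per 1000 FPKM of the summed mature adipocyte genes in visWAT, 1 point per mouse, with the mean and SD in red; KO stands for MlklAdi-KO. *Cfd* and *Retn* stay low on HFD in WT mice at 56.3 and 18.5, *Nrg4* overlaps between all groups, and KO HFD mice are split in *Lep* between 31.1 and 93.3. The summed adipocyte genes of the KO HFD mice run from 6675 to 12509 FPKM.

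Within the groups some of these genes varied together. After subtraction of the 4 group means from log2(FPKM + 1), the genes most like *Retn* over the 18 visWAT libraries were *Fdx1* (Pearson r = 0.95, Spearman rho = 0.95) and *Ivd* (r = 0.95), and those most like *Nrg4* were *Pccb* (r = 0.95) and *Gstz1* (r = 0.94). *Fdx1* encodes a mitochondrial ferredoxin, and *Ivd*, *Pccb* and *Gstz1* encode enzymes of amino acid breakdown. *Adipor2* was most like *Coq8a* (r = 0.97) and *Ganc* (r = 0.93), *Rarres2* most like *Naaa* (r = 0.96) and *Jup* (r = 0.95), and *Cfd* most like *H4c8* (r = 0.96) and *Atp6v0e2* (r = 0.94).

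*Sfrp5* was most like *Shisa2* (r = 0.92) and *Sncg* (r = 0.92), but without the 2 libraries farthest from the median of *Sfrp5* these were 0.67 and 0.69. *Lep* was most like *Stag2* (r = 0.85) and *Pdgfc* (r = 0.80), *Adipor1* most like *Lyplal1* (r = 0.85) and *Hexim2* (r = 0.85), and *Apln* most like *Exoc3l* (r = 0.77) and *Thnsl1* (r = 0.75). Without the 2 libraries farthest from the median of the gene, these were 0.74 and 0.74 for *Lep* and 0.76 and 0.75 for *Adipor1*. For *Apln* they were 0.63 with *Exoc3l* and 0.80 with *Thnsl1*. Each of these most alike genes was picked as the highest of 11196 genes, and all points share depth and cell content with the gene itself. The deviations of *Retn* followed the summed adipocyte genes (r = 0.94, rho = 0.93) and those of *Nrg4* did so too (r = 0.89, rho = 0.85), whereas *Lep* (r = -0.10) and *Sfrp5* (r = 0.10) showed little relation to them.

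The ligands, receptors and pathway partners of these genes were read from a list of 26 genes. In WT visWAT 22 were tested, of which 8 were called higher on HFD and 3 lower, where 37.8% of all genes were called, with a median log2 fold change of 0.18 against -0.01 over all genes. The largest changes were in the complement branch of *Cfd*: *C3ar1*, the receptor of the C3a fragment and a gene of macrophages, went from 1.42 ± 0.226 to 39.8 ± 7.92 FPKM (log2 fold change 4.05 ± 0.15), *C3* from 125 ± 25.5 to 349.6 ± 45.0 (1.49 ± 0.15) and properdin, *Cfp*, from 20.4 ± 2.92 to 49.7 ± 6.82 (1.24 ± 0.13). *Cap1*, described as a resistin receptor, rose by 1.13 ± 0.09. The adjusted p was under the threshold in each, in a direction opposite to that of *Cfd* and *Retn*.

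*Adipoq*, the gene of adiponectin and the ligand of *Adipor1* and *Adipor2*, fell from 1405 ± 326 to 911 ± 101 FPKM in WT mice on HFD (-0.60 ± 0.18, adjusted p = 0.0269). In MlklAdi-KO mice it was at 1675 ± 268 on NCD and 1535 ± 536 on HFD (adjusted p = 0.596), and the genotypes on HFD differed by 0.68 ± 0.24 (adjusted p = 0.221). In MlklAdi-KO visWAT 7 of 21 partner genes tested were called higher on HFD and 5 lower, where 43.7% of all genes were called. Between the genotypes none of the 20 tested on HFD and none of the 22 tested on NCD passed, where 0.0215% and 0% of all genes did.

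A second list held 20 other proteins released by fat. Of 16 tested in WT visWAT, 7 were called higher and 5 lower on HFD, where 37.8% of all genes were called, with a median log2 fold change of 0.63 against -0.01 over all genes. The largest were *Metrnl*, a secreted meteorin-like protein, from 6.79 ± 1.78 to 62.5 ± 12.3 FPKM (3.04 ± 0.19), *Ccl2*, the monocyte chemokine, from 2.02 ± 1.12 to 15.8 ± 5.32 (2.50 ± 0.28), *Grn*, progranulin, from 60.1 ± 3.08 to 239 ± 33.97 (1.97 ± 0.12) and *Agt*, angiotensinogen, from 105 ± 57.1 down to 25.5 ± 3.74 (-1.77 ± 0.42). Macrophages also make *Grn* and *Ccl2*. In MlklAdi-KO visWAT 7 of 16 were called higher and 3 lower, where 43.7% of all genes were called. None of 16 passed between the genotypes on HFD, where 0.0215% of all genes did.

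Liver served as the background. Between the tissues of the same mice 8 of the 9 genes differed in limma with the mouse as a replicate block, where 85.3% of 14657 genes did. With both diets pooled, *Lep*, *Retn*, *Cfd*, *Sfrp5*, *Apln* and *Nrg4* were higher in visWAT and *Rarres2* and *Adipor2* higher in liver. The log2 differences were 8.27 ± 0.22 for *Lep*, 8.34 ± 0.30 for *Retn*, 8.52 ± 0.88 for *Cfd*, 5.82 ± 0.50 for *Sfrp5*, 2.05 ± 0.08 for *Apln*, 0.48 ± 0.20 for *Nrg4*, -0.93 ± 0.10 for *Rarres2* and -1.05 ± 0.10 for *Adipor2*. *Adipor1* had almost the same FPKM in both tissues (-0.02 ± 0.03, adjusted p = 0.648).

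The deposited values carry a scaling that differs between the tissues, and rescaling to the same sum in every library moved the median of all genes from -0.02 to 0.71. It left *Rarres2* and *Adipor2* without a called difference (0.04 and -0.08), while *Adipor1* was then called higher in visWAT by 0.93. The call of *Nrg4* was lost in 9 of 18 fits that left out 1 mouse, where its difference was 0.42 to 0.45. It also depended on diet in the deposited FPKM. On NCD the mean within-mouse log2 difference of *Nrg4*, visWAT minus liver, was 1.38 in WT and 1.34 in MlklAdi-KO mice. On HFD it was -0.52 in WT and 0.065 in MlklAdi-KO mice, so that *Nrg4* was higher in visWAT on NCD only.

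*Lep*, *Retn*, *Apln* and *Sfrp5* were at or near 0 in liver and below the filter of the test. *Lep* had at most 3 reads in 17 of 18 liver libraries and 55 reads (0.875 FPKM) in WT HFD mouse 155. That library also had 0.608 FPKM of *Retn*, 2.70 FPKM of *Adipoq*, 103 reads of the lipid droplet gene *Plin1* against at most 2 in the other liver libraries, and 37.6 FPKM summed over 6 mesothelium genes against 0.462 to 16.8 in the others. The part of adhering fat in these values was not tested.

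Of the 5 genes tested in liver, *Cfd*, *Nrg4* and *Rarres2* were called higher on HFD in WT mice, where 25.3% of 13330 genes passed, and their groups did not overlap, as in 24.8% of genes. *Cfd* was at 3.74, 0.695, 0.105 and 3.91 FPKM in WT NCD mice 165, 180, 182 and 183 and at 57.5, 25.7, 27.2, 14.2 and 5.57 FPKM in WT HFD mice 154, 155, 161, 162 and 164. It rose by 3.05 ± 0.66 (adjusted p = 0.00919, exact p = 0.0159), on 94 to 948 reads per HFD library and 2 to 64 per NCD library. Outside mouse 155, which had 70 reads of *Adipoq*, the WT HFD livers held at most 1 read of *Adipoq* each.

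*Nrg4* was at 1.53, 2.30, 2.91 and 2.05 FPKM in WT NCD and at 4.98, 5.12, 6.26, 6.68 and 6.07 FPKM in WT HFD livers, a rise of 1.103 ± 0.13 (adjusted p = 0.000396, exact p = 0.00794). *Rarres2* was at 108, 92.0, 102 and 99.6 FPKM and at 116, 118, 114, 114 and 119 FPKM, a small rise of 0.21 ± 0.05 (adjusted p = 0.0186, exact p = 0.00794). In a fit over all 4 liver groups its adjusted p was 0.0661. *Adipor2* (0.27 ± 0.14, adjusted p = 0.197) and *Adipor1* (-0.01 ± 0.05, adjusted p = 0.935) did not pass.

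In MlklAdi-KO liver *Cfd* and *Nrg4* were called higher on HFD, where 22.2% of 13149 genes passed, and had groups apart, as 21.5% of genes had. *Cfd* was at 0.598, 0.125, 0.681 and 0.837 FPKM on NCD and at 5.04, 12.3, 38.1, 7.29 and 2.25 FPKM in HFD mice 151, 152, 153, 156 and 157 (2.66 ± 0.59, adjusted p = 0.0113, exact p = 0.0159). *Nrg4* was at 1.78, 1.74, 1.95 and 2.11 FPKM on NCD and at 4.90, 5.69, 4.55, 4.11 and 7.49 FPKM on HFD (1.11 ± 0.14, adjusted p = 0.000562, exact p = 0.00794). Mice 152 and 153, the lowest in *Cfd* in visWAT among MlklAdi-KO HFD mice, were the highest in liver.

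*Rarres2* in MlklAdi-KO liver was at 94.2 to 129.8 FPKM on NCD and 117 to 141 on HFD (0.25 ± 0.10, adjusted p = 0.102), and it passed without NCD mouse 179 (0.34, adjusted p = 0.0191) and in the fit over all 4 liver groups (0.0286). Between the genotypes no gene of the 5 tested in liver passed on HFD (0.197% of 13215 genes) or on NCD (0.00758% of 13193), and the groups overlapped in each, while 2.62% and 2.80% of all genes had groups apart. The interaction of genotype with diet in liver was not called in any of the 5 genes (0.0151% of 13248 genes). On HFD *Cfd* was at 13.0 ± 14.5 FPKM in MlklAdi-KO and 26.0 ± 19.7 FPKM in WT livers (-1.14 ± 0.70, adjusted p = 0.545).

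**Figure D4:**
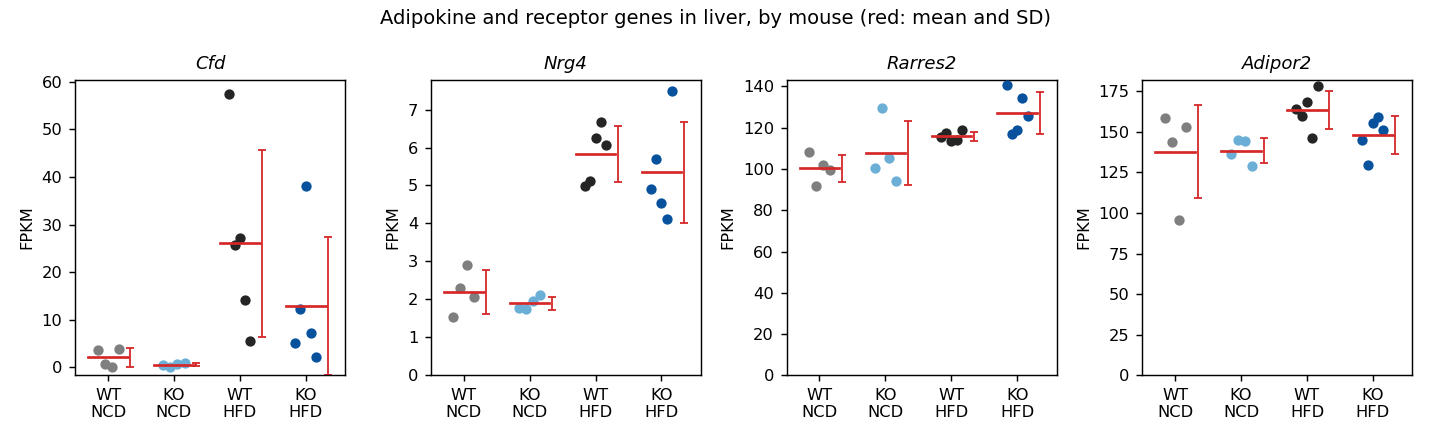
FPKM in liver for *Cfd*, *Nrg4*, *Rarres2* and *Adipor2*, 1 point per mouse, with the mean and SD in red; KO stands for MlklAdi-KO. *Nrg4* lies at 1.53 to 2.91 in all NCD mice and at 4.11 to 7.49 in all HFD mice, and *Cfd* spreads from 2.25 to 57.5 on HFD.

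In the deposited FPKM *Cfd* and *Nrg4* moved in opposite directions in the tissues of the same WT mice, down in visWAT and up in liver. The within-mouse difference of log2(FPKM + 1), visWAT minus liver, was compared between the diets for each gene and genotype, 18 tests in all, chosen after the values were seen. In WT mice the diet effect in visWAT minus that in liver was -7.56 for *Cfd* and -1.89 for *Nrg4* (exact p = 0.00794 each). After rescaling, which moved the median of all genes in WT visWAT by 0.37, the fall of *Nrg4* in visWAT no longer passed (-0.43). Its rise in liver still passed (1.05, adjusted p = 0.000518 in limma). In MlklAdi-KO mice the diet effect in visWAT minus that in liver was -5.95 for *Cfd* and -1.27 for *Nrg4* (exact p = 0.0159 each). *Rarres2* rose in both tissues of WT mice, by 0.75 more in visWAT (exact p = 0.00794), and *Adipor1* showed no difference of the tissues in its response (-0.02, exact p = 0.722).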

How the data were processed

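Polyadenylated RNA of visWAT and liver was sequenced from 18 mice. The authors used fastp for trimming, HISAT2 for alignment to mm39 and featureCounts (1.5.0-p3) for counting per gene. They deposited FPKM for each gene and library and, in their comparison tables, counts of reads. The gene length was deposited by the authors beside the FPKM. Fold changes and p-values of the authors and their pathway tables were not used, nor were 72 further columns of values per sample.

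Reads were recovered from the FPKM, of which 100% were whole within 0.01 reads. The library size behind the FPKM, divided by the reads on genes, was between 1.01 and 1.40 for visWAT and between 0.737 and 0.812 for liver. Depth was 20875463 to 30322171 reads on genes per library, and intervals from reads cover counting error only.

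The test was limma (3.58.1 in R 4.3.3) on log2(FPKM + 1) with a mean-dependent prior variance, where genes averaged at least 0.5 FPKM and p-values were adjusted after Benjamini and Hochberg to a threshold of 0.05. A fold change on this scale understates that of low genes. Tissues were compared with the mouse as a replicate block, since both come from the same animal. Single genes had two-sided exact permutation tests over mice, whose smallest p is 0.00794 for 5 against 5 or 5 against 4 mice and 0.0286 for 4 against 4. Mouse numbers differ between groups, so that groups within a tissue are unpaired. Other settings tried were 0.1 as pseudocount, all genes unfiltered, a mean of at least 1 FPKM, the TPM scale, edgeR (4.0.16) and DESeq2 (1.42.0) on recovered reads, a fit over 4 groups, leaving out each mouse, and leaving out mice 182 and 183. The limma step was run on simulated counts with the same spread between mice in every gene. The real genes differ in spread, so that this run does not show how the test acts on them.

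The named genes are the 9 members, *Adipoq*, in the lists of partners and other adipokines up to 4 called genes with the largest change in WT visWAT on HFD or between the genotypes on HFD, and the 2 genes most alike to each member among those with at least 1 FPKM. *Fbxo22*, *Lrrc61*, *Plin1*, *Cyp2e1*, *Alb*, *Cmklr1*, *Erbb3* and *Erbb4* were named after their values were seen. Members and lists were chosen with earlier results of these data known.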

Additional observations from a re-analysis of the deposited data

Results flagged for a closer look

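In each group of 4 or 5 mice, the highest and lowest value of each gene was compared with its neighbour by Dixon's criterion, in 69 sets of values, of which chance marks about 1 in 20. A total of 6 values stood apart, all in liver. *Lep* was at 0.875 FPKM (55 reads) in WT HFD mouse 155 against 0 to 0.0457 in the other WT HFD livers, in the library with the adipocyte and mesothelium reads described above. *Cfd* was at 38.1 FPKM in MlklAdi-KO HFD mouse 153 against 2.25 to 12.3 in the other 4. The remaining 4 rest on few reads, namely *Lep* in WT NCD mouse 182 at 0.0144 FPKM (1 read) and in MlklAdi-KO HFD mouse 153 at 0.0370 FPKM (2 reads), and *Apln* in WT NCD mouse 182 at 0.153 FPKM (10 reads) and in MlklAdi-KO NCD mouse 199 at 0.0566 FPKM (3 reads).

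The diet effect differed between visWAT and liver of the same mice at an exact p under 0.05 in 12 of 18 tests. In WT mice the effect in visWAT minus that in liver on the log2(FPKM + 1) scale was 1.995 for *Lep*, -2.71 for *Retn*, -7.56 for *Cfd*, 0.75 for *Rarres2*, -1.89 for *Nrg4* and 4.41 for *Sfrp5* (exact p = 0.00794 each). In MlklAdi-KO mice it was 1.63 for *Lep* (exact p = 0.00794), -1.51 for *Retn* (0.0476), -5.95 for *Cfd* (0.0159), 0.49 for *Rarres2* (0.0317), -1.27 for *Nrg4* (0.0159) and 3.37 for *Sfrp5* (0.00794). For *Lep*, *Retn* and *Sfrp5* the liver is at or near 0, so that the difference is mostly that of visWAT. In WT visWAT alone the diet effect was 2.18 for *Lep*, -2.51 for *Retn* and 4.55 for *Sfrp5*. The p-values are not adjusted.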

How the results depend on the processing

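Of 11 comparisons, the number of these genes called changed by at most 1.5 times, reached in liver on HFD, where MlklAdi-KO mice had 3 calls in place of 2 without NCD mouse 179 and in the fit over 4 groups and WT mice 2 in place of 3 in the latter. It ran from 5 to 7 in WT visWAT on HFD, from 4 to 5 in MlklAdi-KO visWAT on HFD and from 7 to 8 between the tissues. Fold changes of single genes kept direction and side of the threshold 871 times without 1 mouse and 560 times under the other settings, and turned sign 29 and 33 times. With the direction kept, a call was lost 16 and 8 times and gained 2 and 1 times. Leaving the mouse out as a replicate block in the comparison of tissues gave 8 calls, as with the block. With the mice of the groups unpaired, only visWAT and liver of the same mouse could be paired. The within-mouse tests of the diet effect also used that pairing. The TPM scale moved the median of all genes by 0.37 in WT visWAT on HFD. Between the genotypes on NCD it moved that median from 0.01 to 0.31. On this scale the diet difference in WT visWAT was 0.24 for *Apln*, 0.44 for *Adipor1* and 0.14 for *Adipor2*. Between the genotypes the difference of *Adipor1* on HFD was -0.086, and on NCD *Apln* was 0.10, *Nrg4* 0.15, *Adipor1* 0.28 and *Adipor2* 0.30. The TPM scale also gave 0.021 for *Adipor1* in WT liver on HFD, interactions of -0.033 for *Apln*, -0.36 for *Adipor1* and -0.17 for *Adipor2* in visWAT and of -0.0054 for *Rarres2* and -0.035 for *Nrg4* in liver, and tissue differences of 0.040 for *Rarres2* and 0.93 for *Adipor1*. Without WT NCD mice 182 and 183 the diet difference of *Adipor1* in WT visWAT was 0.0097, the genotype differences on NCD were -0.055 for *Retn* and -0.17 for *Cfd*, and the interaction of *Rarres2* was 0.13. The interaction of *Cfd* in liver was 0.85 in edgeR and 0.89 in DESeq2, and the tissue difference of *Adipor1* in DESeq2 was 0.010. Relative to the adipocyte genes, an alternative chosen after seeing the data, WT mice on HFD had 0.47 for *Apln*, 0.58 for *Adipor1* and 0.26 for *Adipor2*, MlklAdi-KO mice 0.062 for *Nrg4* and 0.25 for *Adipor2*, the genotypes on HFD -0.26 for *Apln*, -0.12 for *Rarres2*, -0.43 for *Adipor1* and -0.20 for *Adipor2*, and those on NCD -0.033 for *Retn*. None of these values that turned sign had passed the test in the main analysis, apart from *Rarres2* between the tissues, and the cause was not tested.

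Leaving out 1 mouse gave diet differences in WT visWAT of -0.30 to 0.10 for *Apln* and -0.051 to 0.021 for *Adipor1* and -0.53 to -0.14 for *Adipor2*, in MlklAdi-KO visWAT of -0.097 to 0.057 for *Adipor2* and in WT liver of -0.030 to 0.018 for *Adipor1*. Genotype differences were -0.17 to 0.043 for *Lep* on HFD, -0.073 to 0.20 for *Retn*, -0.36 to 0.046 for *Apln* and -0.27 to 0.13 for *Adipor2* on NCD, and in NCD liver -0.0026 to 0.15 for *Rarres2* and -0.13 to 0.11 for *Adipor2*. Interactions were -0.38 to 0.022 for *Rarres2* in visWAT, and in liver -0.90 to 0.0081 for *Cfd*, -0.019 to 0.13 for *Rarres2* and -0.10 to 0.11 for *Nrg4*. The read counts limit what can be said of *Lep*, *Retn*, *Apln* and *Sfrp5* in liver.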

Other observations

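WT NCD mouse 182, whose *Mlkl* level goes against its label, was at an end of its group in several of these genes in visWAT. It was the lowest of the 4 WT NCD mice in *Cfd* (3486 FPKM against 8360.4 to 14086), *Lep* (83.8 against 122 to 193), *Rarres2* (20.9 against 35.5 to 49.5) and *Sfrp5* (0.350 against 4.11 to 48.2). It was the highest in *Nrg4* (10.1 against 5.15 to 8.44), *Adipor1* (30.4 against 26.0 to 27.4) and *Adipor2* (117 against 51.2 to 91.5). Its liver was the lowest of the group in *Adipor2* (95.6 against 144 to 158 FPKM) and in *Cfd* (0.105 FPKM), with macrophage genes summing to 258 FPKM against 70.98 to 97.0 in the other WT NCD livers. The part of this animal in the spread of the WT NCD group was not tested beyond the fits without it.

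*Nrg4* acts through ErbB receptors, and their genes were measured in both tissues. *Erbb3* was at 41.8 ± 6.40 FPKM in WT NCD and 35.3 ± 3.95 FPKM in WT HFD livers (SD, n = 4 and 5), against 1.48 ± 2.42 and 0.298 ± 0.1001 FPKM in visWAT of the same groups. *Erbb4* was at 0.476 ± 0.1199 and 0.626 ± 0.0960 FPKM in the same livers and at 0.0673 ± 0.0686 and 0.00290 ± 0.00340 FPKM in visWAT. In WT NCD visWAT, the group with mouse 183 and its seminal vesicle RNA, the SD of both genes was above the mean, so that their level there is uncertain. For chemerin, *Cmklr1* was at 27.3 ± 1.57 FPKM in WT NCD visWAT and 0.642 ± 0.366 FPKM in WT NCD liver. These genes were named after their values were seen.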
